A study of Mus musculus with 20 samples.

Results

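The genes followed here serve fat storage and breakdown, and 10 of them were read across mouse spinal cord arrays: the lipase genes Pnpla2, Lipe and Mgll, the lipase coactivator gene Abhd5, the perilipin genes Plin2, Plin3, Plin4 and Plin5, and Angptl4 and Cpt1a. They were taken by name, and each had exactly 1 probe set (a group of probes read as 1 value) that carried its symbol alone, so all 10 were measured, out of 22180 genes. The groups were Cx30GRko mice given dexamethasone (Dex), control mice given Dex, Cx30GRko mice given saline and control mice given saline, with 5 arrays each and 1 array per sample. In Cx30GRko mice the glucocorticoid receptor gene is removed by Cre, and the name of the line points to connexin 30 (Cx30), a gap junction protein of astrocytes. The arrays titled Tg were read as Cx30GRko and those titled wt as control. Dex, a synthetic glucocorticoid receptor agonist, was injected intraperitoneally at 4 mg/kg, and spinal cord was taken 4 h after the injection of Dex or saline from C57BL/6J mice aged 6 to 10 weeks. The cord was the tissue in which Cre recombined most efficiently, as the series text has it. The recombination rate and the cells that kept the receptor are not given there, and all 4 groups shared strain, tissue and time.

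Lipid droplets are stores of triglyceride that cells cover with perilipin proteins. Triglyceride is broken down in steps: the product of Pnpla2 (adipose triglyceride lipase) takes off the first fatty acid with the help of the coactivator ABHD5, hormone-sensitive lipase (Lipe) takes the next, and monoacylglycerol lipase (Mgll) the last. In brain and cord Mgll is also the main enzyme that degrades the endocannabinoid 2-arachidonoylglycerol. The freed fatty acids enter mitochondria through CPT1, whose widely expressed form is the product of Cpt1a, and glucocorticoids are known to induce several of these genes in fat and liver.

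Signals are on the log2 scale, so that a difference of 1 is a doubling, and a probe set's level is compared only with itself. Differences were tested with limma, with Benjamini-Hochberg adjustment across the 22180 genes, and a gene was called when its adjusted p was under 0.05. For every probe set the 12 arrays of replicates 1 to 3 and the 8 arrays of replicates 4 and 5 had the same mean (largest difference 4.5e-09), so the deposited values had been centred within these 2 array sets. Each set holds the 4 groups in equal numbers, and the set is a term in the fit. Residual spread was larger in replicates 4 and 5 (median SD over genes 0.37) than in replicates 1 to 3 (0.21). Cx30GRko Dex replicates 4 and 5 stood apart by their wider range of signals: their SDs over probe sets were 1.945 and 1.813, and their set held no other array above 1.713. The receptor gene Nr3c1 did not mark the genotypes: its difference between Cx30GRko and control arrays was 0.37 under Dex (adjusted p = 0.646) and -0.02 under saline (adjusted p = 0.997), and it is unknown here whether its probe set lies in the deleted part. Of the glucocorticoid target genes, Fkbp5 had a mean Dex effect of 0.69 ± 0.18 and Tsc22d3 one of 0.33 ± 0.10 (adjusted p = 0.306 and 0.446), and Gjb6, the connexin 30 gene, differed by 0.01 ± 0.19 between genotypes under Dex. As a check of the tissue, mean signals were 5.28 to 7.27 for 9 Hox genes of trunk position. Neuron markers ran from 4.41 (Gad1) to 10.32 (Snap25), and oligodendrocyte markers from 5.67 (Opalin) to 8.64 (Mobp). Astrocyte markers ran from 5.53 (Aldh1l1) to 9.57 (Aldoc), with no background level at hand that would tell presence from absence.

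**Figure D1:**
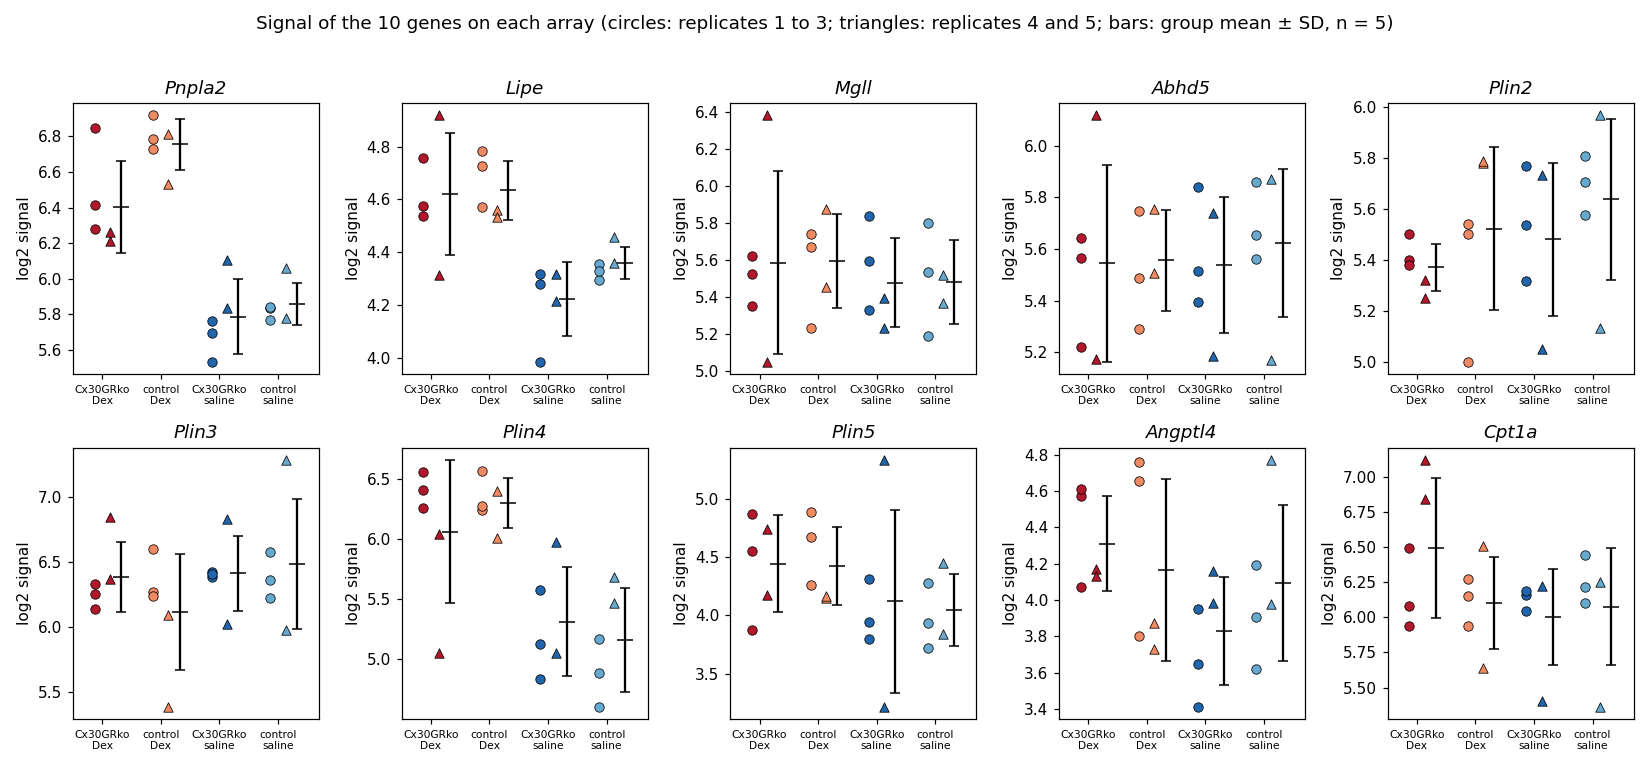
Log2 signal (vertical axes, each with its own range) of the 10 genes on each of the 20 arrays, by group; circles are replicates 1 to 3, triangles replicates 4 and 5, and bars the group mean ± SD (n = 5). Pnpla2 is the 1 gene whose Dex arrays all lie above its saline arrays, with 6.21 as the lowest Dex value and 6.11 as the highest saline value.

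The first question was how Dex changed each gene, in each genotype and on average. Pnpla2, which encodes the lipase of the first step, rose with Dex over both genotypes. Its values in replicates 1 to 5 were 6.85, 6.41, 6.28, 6.21 and 6.26 in Cx30GRko Dex arrays, against 5.70, 5.53, 5.76, 5.84 and 6.11 in Cx30GRko saline arrays. In control Dex arrays they were 6.73, 6.92, 6.78, 6.81 and 6.53, against 5.77, 5.84, 5.84, 5.78 and 6.06 in control saline arrays. No Dex array overlapped with any saline array in either genotype or over all 20 arrays, where 0.784% of all genes stood higher without overlap in control mice, 1.05% in Cx30GRko mice and 0.0586% over all 20 arrays. The mean of the Dex effects was 0.76 ± 0.10 (SE of the fit, 10 Dex and 10 saline arrays, adjusted p = 0.00188), a 1.69-fold change, and ranked 5 among all genes by p. Pnpla2 was the only 1 of the 10 called for this mean effect, where 0.108% of all genes were called.

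In control mice Pnpla2 rose by 0.90 ± 0.15 (n = 5 per group, adjusted p = 0.0396), 1.86-fold, and was 1 of the 3 genes called (0.0135% of all genes). In Cx30GRko mice its difference was 0.62 ± 0.15, 1.53-fold, and did not pass the test (adjusted p = 0.447, with 0.00902% of all genes called). The call in control mice was fragile. It was held in 8 of the 20 fits that left out 1 array, with differences of 0.85 to 0.96 and adjusted p of 0.0196 to 0.236, and it was lost without control Dex replicate 1, 2, 3 or 4, control saline replicate 1, 2, 3 or 4, Cx30GRko Dex replicate 2, or Cx30GRko saline replicate 1, 2 or 4. The call for the mean effect was held in all 20 of those fits (0.70 to 0.80, adjusted p of 0.00112 to 0.00714). Within replicates 1 to 3 the mean effect of Pnpla2 was 0.92 ± 0.10 (adjusted p = 0.00134), and within replicates 4 and 5 it was 0.51 ± 0.19 (adjusted p = 0.445).

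Lipe, the gene of hormone-sensitive lipase, showed a smaller difference in the same direction that did not pass the test. Its values in replicates 1 to 5 were 4.76, 4.54, 4.57, 4.92 and 4.31 in Cx30GRko Dex arrays and 4.32, 4.28, 3.99, 4.22 and 4.32 in Cx30GRko saline arrays. They were 4.72, 4.57, 4.78, 4.56 and 4.53 in control Dex arrays and 4.36, 4.30, 4.33, 4.36 and 4.46 in control saline arrays. In control mice the Dex and saline arrays did not overlap, as for 0.784% of all genes in this direction, and in Cx30GRko mice Dex replicate 5 lay within the saline range. The mean Dex effect of Lipe was 0.34 ± 0.09 (adjusted p = 0.364), with 0.40 ± 0.13 in Cx30GRko mice and 0.28 ± 0.13 in control mice. Replicates 1 to 3 alone gave 0.40 for Lipe and replicates 4 and 5 alone gave 0.24, the same sign in both array sets.

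The genes that act with these 2 lipases were not called. Abhd5, the coactivator of the Pnpla2 product, ranged from 5.17 to 6.12 in Cx30GRko Dex, 5.29 to 5.75 in control Dex, 5.19 to 5.84 in Cx30GRko saline and 5.17 to 5.87 in control saline arrays. The ranges overlapped throughout, and the mean Dex effect of Abhd5 was -0.03 ± 0.14, with a 95% interval of -0.31 to 0.25 that leaves out a change as large as that of Pnpla2. Mgll, which completes the breakdown, ranged from 5.05 to 6.38 in Cx30GRko Dex, 5.23 to 5.88 in control Dex, 5.23 to 5.84 in Cx30GRko saline and 5.19 to 5.80 in control saline arrays. Its mean Dex effect was 0.11 ± 0.15 (95% interval -0.19 to 0.41). The highest value of both genes, 6.12 for Abhd5 and 6.38 for Mgll, was that of Cx30GRko Dex replicate 4, and without this array their mean Dex effects were -0.11 and 0.0004.

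**Figure D2:**
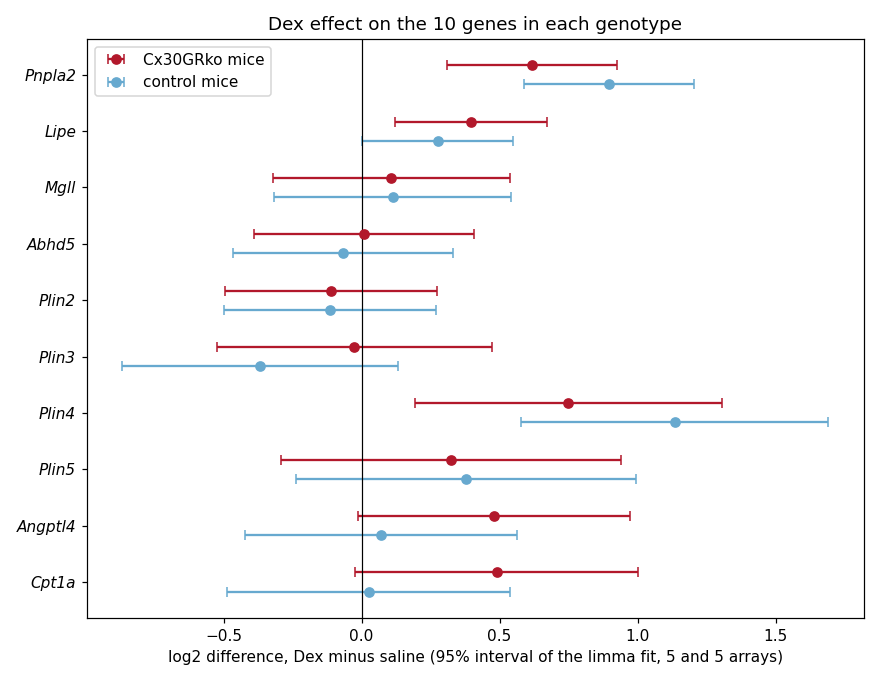
Dex minus saline difference (log2, horizontal axis) of each gene in Cx30GRko mice and in control mice, with the 95% interval of the limma fit (5 Dex and 5 saline arrays each). Pnpla2 (0.62 and 0.90), Plin4 (0.75 and 1.13) and Lipe (0.40 and 0.28) lie above 0 with their intervals in both genotypes, that of Lipe in control mice by 0.0001. Abhd5, Mgll, Plin2, Plin3, Plin5, Angptl4 and Cpt1a have intervals that hold 0 in both.

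Among the perilipins the difference was uneven. Plin4, known as a coat protein of adipocyte and muscle droplets, had the largest Dex difference of the 10 genes, and the largest SE after Plin5. In replicates 1 to 5 Plin4 stood at 6.55, 6.40, 6.26, 5.05 and 6.04 in Cx30GRko Dex arrays and at 4.84, 5.13, 5.57, 5.05 and 5.97 in Cx30GRko saline arrays. In control Dex arrays it stood at 6.57, 6.24, 6.27, 6.01 and 6.40, and in control saline arrays at 4.89, 5.17, 4.60, 5.68 and 5.46. Control Dex and control saline arrays did not overlap, as for 0.784% of all genes in this direction. In Cx30GRko mice Dex replicate 4 was the 1 Dex array within the saline range. The mean Dex effect was 0.94 ± 0.19, 1.92-fold, just outside the threshold (adjusted p = 0.056). The Plin4 difference was 0.75 ± 0.27 in Cx30GRko mice (adjusted p = 0.572) and 1.13 ± 0.27 in control mice (adjusted p = 0.333).

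Single arrays moved Plin4 across the threshold for the mean effect. It was called without Cx30GRko Dex replicate 4 (1.08, adjusted p = 0.00349), without Cx30GRko saline replicate 5 (1.03, 0.0235) or without control saline replicate 4 (1.01, 0.0333), and the range over the 20 such fits was 0.87 to 1.08 (adjusted p of 0.00349 to 0.148). Without the 2 Cx30GRko Dex arrays that stood apart it was 1.17 (adjusted p = 0.00299), and with no term for the array set it was 0.94 (0.0344). Within replicates 1 to 3 the effect was 1.35 ± 0.14 (adjusted p = 0.00118), and within replicates 4 and 5 it was 0.33 ± 0.31 (0.795).

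Plin5, Plin2 and Plin3 were not called in any comparison. Plin5, a perilipin of tissues that oxidise fat, is the neighbour of Plin4 on chromosome 17 in the RefSeq annotation (GRCm38.p6). It ranged from 3.87 to 4.88 in Cx30GRko Dex, 4.15 to 4.89 in control Dex, 3.21 to 5.34 in Cx30GRko saline and 3.72 to 4.46 in control saline arrays, and its mean Dex effect was 0.35 ± 0.21 (95% interval -0.08 to 0.79). Plin2, the coat protein of droplets in most cells, ranged from 5.25 to 5.50 in Cx30GRko Dex, 5.00 to 5.79 in control Dex, 5.05 to 5.77 in Cx30GRko saline and 5.13 to 5.97 in control saline arrays, with a mean Dex effect of -0.11 ± 0.13 (-0.38 to 0.16). Plin3, which also serves in transport from late endosomes, had ranges of 6.14 to 6.85, 5.39 to 6.60, 6.02 to 6.83 and 5.98 to 7.29 in the same order of groups, and a mean Dex effect of -0.20 ± 0.17 (-0.55 to 0.16). The 3 intervals leave out a change as large as the 0.94 of Plin4.

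Angptl4 encodes a secreted inhibitor of lipoprotein lipase that glucocorticoids induce in fat and liver. In replicates 1 to 5 Angptl4 stood at 4.07, 4.57, 4.61, 4.17 and 4.13 in Cx30GRko Dex arrays and at 3.41, 3.95, 3.65, 4.16 and 3.99 in Cx30GRko saline arrays. It stood at 4.76, 4.66, 3.80, 3.73 and 3.87 in control Dex arrays and at 3.62, 4.19, 3.90, 3.98 and 4.77 in control saline arrays. The mean Dex effect was 0.28 ± 0.17 (adjusted p = 0.705). Replicates 1 to 3 alone gave 0.62 ± 0.18 and replicates 4 and 5 alone -0.25 ± 0.23, opposite in sign, and neither passed the test (adjusted p = 0.326 and 0.791).

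Cpt1a, the gene of the mitochondrial entry step of fatty acids, had the opposite pattern over the array sets. Its values in replicates 1 to 5 were 6.49, 5.93, 6.08, 7.12 and 6.84 in Cx30GRko Dex arrays and 6.16, 6.04, 6.19, 5.40 and 6.22 in Cx30GRko saline arrays. In control Dex arrays they were 6.15, 5.94, 6.28, 6.51 and 5.64, and in control saline arrays 6.10, 6.22, 6.44, 6.25 and 5.36. The 2 highest values were those of Cx30GRko Dex replicates 4 and 5. The mean Dex effect was 0.26 ± 0.17 (adjusted p = 0.727), and it was 0.04 without those 2 arrays. Replicates 1 to 3 alone gave -0.05 ± 0.11 for Cpt1a and replicates 4 and 5 alone 0.72 ± 0.32. Marker lists of several cell types were also high on these 2 arrays, while those of others were not. On Cx30GRko Dex replicates 4 and 5 the mean deviation from the array set mean was 0.78 and 0.46 for astrocyte markers (12 of 12 measured), 0.86 and 0.36 for neuron markers (9 of 9), 0.79 and 0.32 for oligodendrocyte markers (7 of 8) and 0.47 and 0.16 for endothelial markers (8 of 8). On the same 2 arrays it was -0.90 and -0.10 for adipocyte markers and -0.61 and 0.07 for skeletal muscle markers. For neutrophil and monocyte markers it was -0.46 and -0.05, and for microglia markers -0.16 and 0.18. Mural cell, meningeal fibroblast and Schwann cell markers were high on replicate 4 and low on replicate 5. Over the groups the astrocyte list ranged from -0.06 to 0.78 in Cx30GRko Dex, -0.39 to 0.06 in control Dex, -0.26 to 0.07 in Cx30GRko saline and -0.38 to -0.02 in control saline arrays. The neuron list ranged from -0.14 to 0.86, -0.06 to 0.12, -0.22 to 0.15 and -0.53 to 0.04 in the same order of groups. The part of these cell types in the result, and that of the wider signal range of the 2 arrays, was not tested. In whole cord a different number of cells of a type and a different amount of RNA per cell cannot be told apart.

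**Figure D3:**
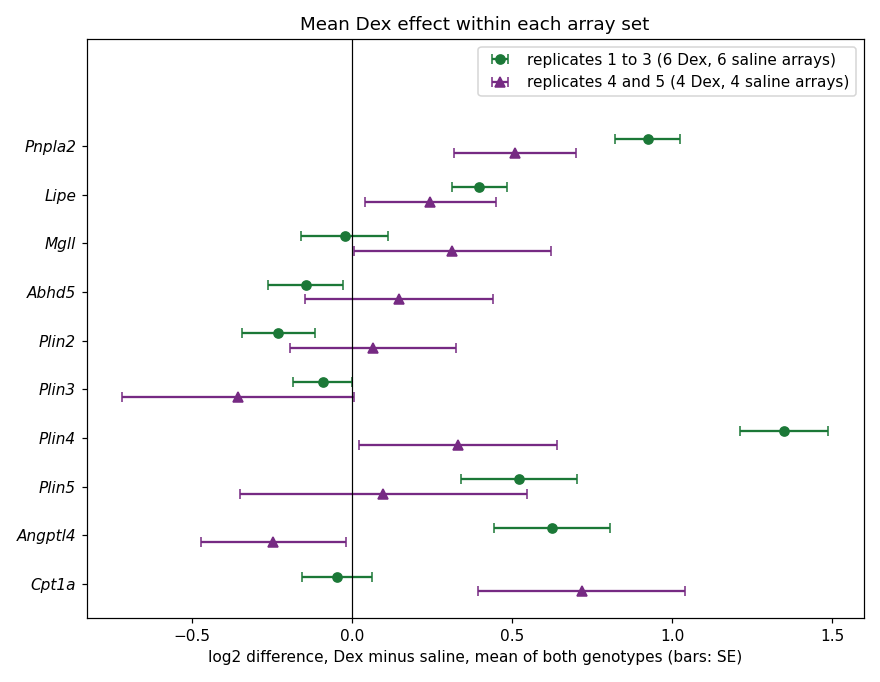
Mean Dex effect (log2, horizontal axis) of each gene within replicates 1 to 3 (circles, 6 Dex and 6 saline arrays) and within replicates 4 and 5 (triangles, 4 and 4 arrays), with bars of 1 SE. Plin4 (1.35 and 0.33), Angptl4 (0.62 and -0.25) and Cpt1a (-0.05 and 0.72) lie farthest apart between the sets.

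Because the values within the 2 array sets differed for several genes, the difference itself was tested over all genes with an array set by Dex term in limma, a test added after the values were seen. The Dex effect in replicates 1 to 3 minus that in replicates 4 and 5 was 1.02 for Plin4 (adjusted p = 0.187), 0.87 for Angptl4 (0.213), -0.76 for Cpt1a (0.326) and 0.41 for Pnpla2 (0.387). None of the 10 genes was called, while 50 of the 22180 were. Unadjusted p in this limma test was under 0.05 for Plin4 (0.00487), Angptl4 (0.00695), Cpt1a (0.0269) and Pnpla2 (0.0475), as for 2804 of the 22180 genes. For comparison Fkbp5, a co-chaperone gene that glucocorticoids induce widely, had Dex effects of 1.18 in replicates 1 to 3, where it was called (adjusted p = 0.000973), and -0.05 in replicates 4 and 5 (adjusted p = 0.056 for the difference).

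Over the 10 genes the median of the mean Dex effect was 0.27, with 7 positive, beside a median of 0.02 and 54.1% positive over all 22180 genes. In Cx30GRko mice the median was 0.36 with 8 positive (0.02 and 53.7% positive over all genes). In control mice it was 0.09 with 7 positive (0.01 and 52.3% positive over all genes). At an unadjusted p under 0.05 the mean Dex effect picked 3 of the 10, namely Pnpla2, Plin4 and Lipe, where it picked 7.47% of all genes. The 10 genes were chosen with earlier results of these data known, so these values describe them and do not test them as a set.

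The promoter sequences of these 3 genes are shown because theirs were the lowest p of the 10 for Dex. They come from RefSeq (GRCm38.p6), which held promoters for 9 of the 10 genes, 12 windows in all, each of 300 bases from 250 before to 50 after a transcription start. The build used by the authors is not given in the sources used here, so the positions are those of RefSeq alone. Sequences run 5′ to 3′ on the gene's strand, and capitals mark matches on either strand to AGAACA (the glucocorticoid receptor hexamer), AGGTCA (the hexamer of PPARs and other nuclear receptors), GGGCGG (the GC box) or GTAAACA (the FoxO element). Lipe has 2 windows, for 2 starts.
Pnpla2, chr7:141454938-141455237, plus strand: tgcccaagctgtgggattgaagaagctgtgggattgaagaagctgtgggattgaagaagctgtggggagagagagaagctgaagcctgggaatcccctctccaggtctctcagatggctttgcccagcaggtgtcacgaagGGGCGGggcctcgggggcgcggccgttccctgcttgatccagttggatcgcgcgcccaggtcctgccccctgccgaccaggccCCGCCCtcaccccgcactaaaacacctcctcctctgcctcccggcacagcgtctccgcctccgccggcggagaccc
Plin4, chr17:56109733-56110032, minus strand: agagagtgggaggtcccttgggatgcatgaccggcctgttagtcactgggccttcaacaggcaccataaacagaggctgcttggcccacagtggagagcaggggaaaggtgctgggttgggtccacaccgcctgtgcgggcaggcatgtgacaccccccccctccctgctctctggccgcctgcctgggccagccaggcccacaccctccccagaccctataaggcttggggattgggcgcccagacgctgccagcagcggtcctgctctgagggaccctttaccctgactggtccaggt
Lipe, chr7:25395938-25396237, minus strand: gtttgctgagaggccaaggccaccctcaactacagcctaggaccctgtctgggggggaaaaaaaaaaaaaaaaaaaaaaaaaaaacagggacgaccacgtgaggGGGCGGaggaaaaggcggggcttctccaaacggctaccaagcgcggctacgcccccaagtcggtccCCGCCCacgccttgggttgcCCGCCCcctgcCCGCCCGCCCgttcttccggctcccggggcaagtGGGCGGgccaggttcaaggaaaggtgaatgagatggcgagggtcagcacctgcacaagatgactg
Lipe, chr7:25390063-25390362, minus strand: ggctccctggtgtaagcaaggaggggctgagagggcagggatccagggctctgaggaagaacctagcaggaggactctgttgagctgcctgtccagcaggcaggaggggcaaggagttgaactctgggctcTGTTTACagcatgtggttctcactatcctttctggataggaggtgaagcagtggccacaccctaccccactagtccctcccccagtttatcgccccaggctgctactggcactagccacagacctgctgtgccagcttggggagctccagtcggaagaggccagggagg

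The Pnpla2 window held 2 GC boxes, the first Lipe window 6, of which a pair overlap each other, and the second Lipe window 1 FoxO element, while the Plin4 window held none of the 4 motifs. Among the 12 windows of the 9 genes, 10 held a GC box, against 35.7% of all 32851 promoter windows, and 2 held a FoxO element (Lipe and Mgll), against 3.65%. The paired windows of Mgll overlap each other, as do those of Plin5. AGGTCA was in 5 windows (Abhd5, Cpt1a, Plin2 and both of Plin5), against 16.3% of all windows. AGAACA was in 1, a window of Mgll, against 19% of all windows, so no window of Pnpla2, Plin4 or Lipe held it. The full receptor palindrome, the hexamer and its reverse complement 3 bases apart, was in none of the 12, against 0.00913% of all windows. GC content, which bears on the GC box, was 59.3% to 72.3% in the 12 windows against a median of 52.7%. These are matches of letters in short windows, and regions farther from the start were not analysed here.

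The second question was whether the genes differed between genotypes. No gene of the 10, and none of all 22180 (0%), was called for Cx30GRko against control under Dex or under saline, or for the interaction of genotype and Dex, while 2169, 985 and 1090 genes had an unadjusted p under 0.05 in these 3 limma comparisons. Pnpla2 had the smallest p of the 10 under Dex. Its mean was 6.40 ± 0.26 in Cx30GRko Dex and 6.75 ± 0.14 in control Dex arrays (SD, n = 5 each). These groups overlapped, with Cx30GRko Dex replicate 1 within the control Dex range. The difference of -0.35 ± 0.15 had an adjusted p of 0.502 in limma. It was the 1 gene of the 10 with an unadjusted p under 0.05, as 9.78% of all genes had. Under saline the Pnpla2 means were 5.79 ± 0.21 in Cx30GRko and 5.86 ± 0.12 in control arrays, a difference of -0.07 ± 0.15. The Dex effect of Pnpla2 in Cx30GRko minus that in control mice was -0.28 ± 0.21 (95% interval -0.72 to 0.15, adjusted p = 0.924), -0.15 within replicates 1 to 3 and -0.48 within replicates 4 and 5. Without Cx30GRko Dex replicates 4 and 5, which stood apart, it was -0.13, and the Pnpla2 difference between genotypes under Dex was -0.20.

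For the other 9 genes the interaction ran from -0.39 ± 0.38 for Plin4 to 0.46 ± 0.35 for Cpt1a, with adjusted p of 0.924 to 0.999. Lipe stood at 0.12 ± 0.19, Plin5 at -0.06 ± 0.42, Angptl4 at 0.41 ± 0.33 and Plin3 at 0.34 ± 0.34, and the 95% intervals of all 4 held 0. Plin4 turned to 0.07 without Cx30GRko Dex replicates 4 and 5, and Cpt1a stood at 0.03 without them. Under saline the differences of the 9 were between -0.26 ± 0.24 (Angptl4) and 0.15 ± 0.27 (Plin4). Under Dex they were between -0.24 ± 0.27 (Plin4) and 0.39 ± 0.25 (Cpt1a), which became -0.04 for Cpt1a without those 2 arrays.

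How the genes varied together was described over the 20 arrays, with values centred within the array sets. These correlations share the Dex and saline groups and the arrays themselves, and are given without a test. Pnpla2 and Plin4 had the highest Pearson correlation of the 45 pairs (0.815), followed by Mgll and Abhd5 (0.769) and by Pnpla2 and Lipe (0.737). Abhd5 correlated with Pnpla2 at -0.105 and with Plin2 at -0.033, and Plin4 with its neighbour Plin5 at 0.473.

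**Figure D4:**
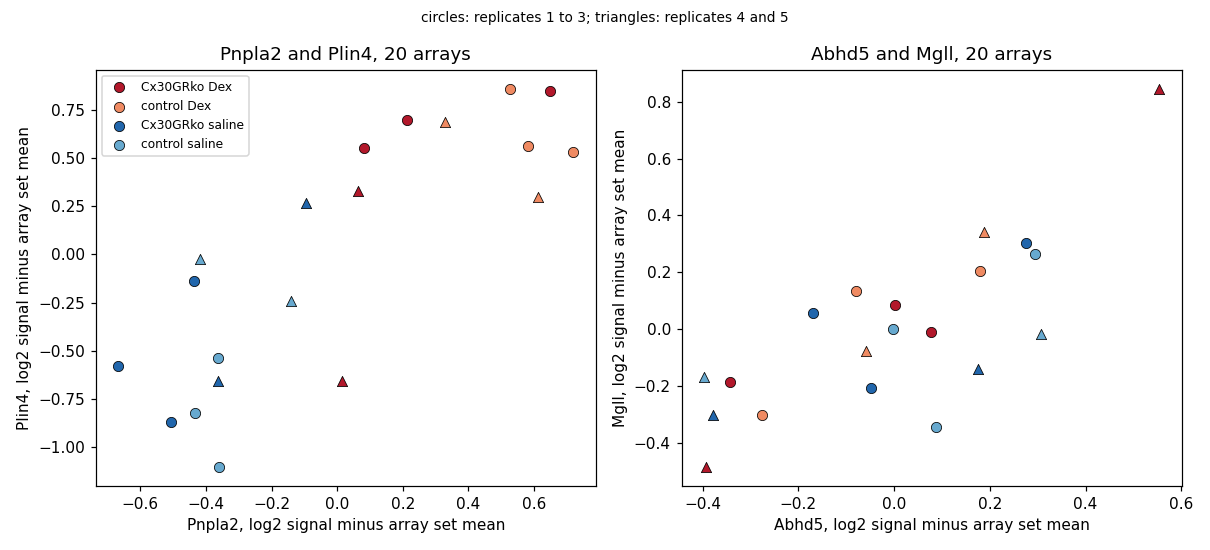
Log2 signal minus the array set mean for Pnpla2 against Plin4 (left) and Abhd5 against Mgll (right), 1 point per array, coloured by group, with circles for replicates 1 to 3 and triangles for replicates 4 and 5. In the left plot all Dex arrays lie right of 0 on the Pnpla2 axis and all saline arrays left of it, with Cx30GRko Dex replicate 4 as the only Dex array below 0 for Plin4, and in the right plot the groups are mixed and the same array lies at the upper end.

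The genes most like Pnpla2 over the 20 arrays were Fam214a (Pearson r = 0.862), Zfp36, which encodes an mRNA-destabilising protein (0.861), the small GTPase gene Rab31 (0.849), Ddc, of aromatic amino acid decarboxylation (0.842), and Gadd45g (0.840). Of these 5, Zfp36 (mean Dex effect 1.01, adjusted p = 0.0211), Rab31 (0.67, 0.0142) and Fam214a (0.56, 0.0232) rose with Dex. Plin4 was most like the intermediate filament gene Synm (0.847), 2700046A07Rik (0.839), Fam214a (0.835), Ddc (0.820) and Pnpla2 (0.815). Angptl4 was most like the lipocalin gene Lcn2 (0.792), Olfr744 (0.766), 4930417O13Rik (0.756), Klhl36 (0.753) and Trp53inp1 (0.753), none of which was called for the mean Dex effect (adjusted p of 0.649 to 0.925).

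The wider pathway was read from 6 lists that leave out the 10 genes. None of their 106 measured members was called in any of the 6 comparisons, though with array weights Pnpla7 (0.56, adjusted p = 0.0273) and Pdk4 (0.54, adjusted p = 0.0198), of the list genes named here, were called for the mean Dex effect. Among other lipases, their activators and inhibitors (24 of 25 measured) the median of the mean Dex effect was -0.03, with 11 positive. The smallest p were those of Pnpla7, a lysophospholipase (0.48 ± 0.16), and Abhd6, which also degrades 2-arachidonoylglycerol (0.35 ± 0.15, -0.04 in replicates 1 to 3 and 0.93 in replicates 4 and 5). G0s2, the inhibitor of the Pnpla2 product, stood at 0.21 ± 0.16, and Hilpda, a further inhibitor, at 0.11 ± 0.15 (adjusted p = 0.744 and 0.866), both picked for their role. Ces3a stood at -0.34 and Abhd12 at 0.31.

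Droplet coat and assembly genes (13 of 15 measured) had a median of 0.05, with 8 positive, led by Fitm1 (-0.33 ± 0.20), Bscl2, which encodes seipin (0.20 ± 0.13), Fitm2 (0.16) and Hsd17b13 (0.23). Triglyceride synthesis genes (17 of 20 measured) had a median of 0.07, with 13 positive. The phosphatidate phosphatase genes Lpin2 (0.43 ± 0.15) and Lpin1 (0.40 ± 0.15), Dgat2 of the last step of synthesis (0.38 ± 0.17) and Gpam of the first (0.25) had its smallest p, with adjusted p of 0.563 to 0.712. Fatty acid uptake and binding genes (12 of 12) had a median of -0.003, with 6 positive, led by the transporter gene Slc27a1 (0.37 ± 0.16), Fabp4 of adipocytes (-0.36 ± 0.17), Dbi (-0.19) and Acbd3 (0.38).

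Fatty acid oxidation genes (28 of 32 measured) had a median of 0.09, with 18 positive. Cpt2, the partner of Cpt1a inside mitochondria, had the smallest p of all 6 lists, at 0.47 ± 0.15 (adjusted p = 0.476), with 0.50 in replicates 1 to 3 and 0.42 in replicates 4 and 5. Cpt1c, the neuronal form (0.27 ± 0.10), Pdk4, a kinase that turns glucose oxidation down (0.33 ± 0.14), and Hadha (0.32 ± 0.15) followed. PPAR receptors and partners (12 of 12) had the highest median of the lists, 0.17 with 10 positive, led by Ppard (0.30 ± 0.11), Rxra (0.34 ± 0.15), Foxo3 (0.25) and Nrip1 (0.37). Over all 22180 genes the median was 0.02.

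**Figure D5:**
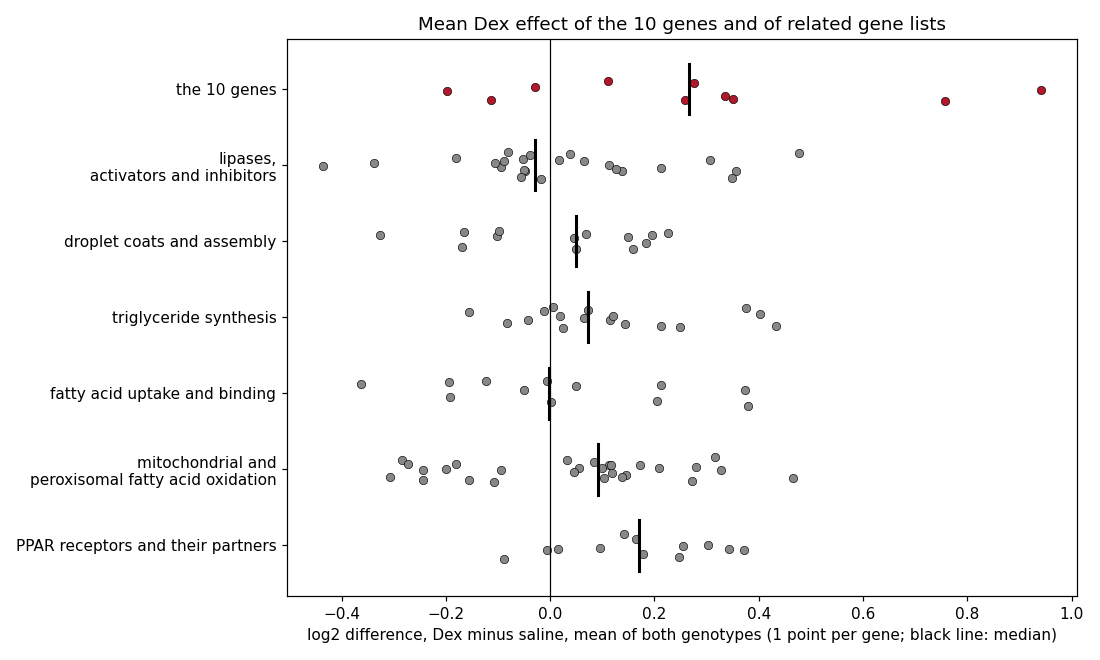
Mean Dex effect (log2, horizontal axis) of each measured gene of the 10 and of the 6 related lists, 1 point per gene, with a black line at each median. Plin4 (0.94) and Pnpla2 (0.76) lie to the right of all genes of the other lists, the highest of which is Pnpla7 at 0.48.

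Cells that are rich in these genes elsewhere were checked through their markers. Adipocyte markers (7 of 9 measured, Fabp4 among them) had a mean deviation from the array set mean of -0.90 to -0.01 in Cx30GRko Dex, -0.08 to 0.39 in control Dex, -0.03 to 0.56 in Cx30GRko saline and -0.20 to 0.17 in control saline arrays. Their median Dex difference was -0.37 in Cx30GRko mice, where replicates 1 to 3 alone gave -0.02 and replicates 4 and 5 alone -0.77. It was 0.08 in control mice, where the same sets gave -0.15 and 0.34. The lowest adipocyte value, -0.90, was that of Cx30GRko Dex replicate 4. Mean signals of the measured adipocyte markers were 2.95 for Lep, 3.04 for Adipoq, 3.61 for Retn and 3.68 for Fabp4. They were 4.30 for Cidec, 4.81 for Pck1 and 4.90 for Plin1. The median of the mean Dex effect over this list was -0.17, with 1 positive, and the hormone genes Adipoq and Lep stood at -0.11 and -0.18. Skeletal muscle markers (8 of 8) had median Dex differences of 0.06 in Cx30GRko and -0.19 in control mice, and endothelial markers (8 of 8) -0.01 and -0.22. Markers of meningeal fibroblasts (8 of 8) ran at 0.46 and -0.46 in the same order, and Schwann cell markers (6 of 8) at 0.46 and -0.62. The part of these cells in the results was not tested.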

How the data were processed

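Spinal cord RNA of 20 samples was measured on Affymetrix whole-transcript arrays. The authors deposited values per probe set, taken as log2 from their range of -0.5 to 11.76, and every array had the mean 4.64. The submitters' processing notes name oligo, and its version, the normalization method, the build and the annotation are not given in the sources used here. Of 41345 probe sets, 23521 had 1 gene symbol in the platform annotation, 1814 several and 16010 none. The brightest probe set per symbol was tested, which gave 22180 genes, with no filter on dim signals.

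Group means and a term for the array set were fitted with limma 3.58.1 in R 4.3.3 to all 20 arrays (15 residual and 5.77 prior degrees of freedom), without a replicate block. The set term counts the degree of freedom that the centring within sets had used. P-values are two-sided. The fit was tried on simulated data in which a gene had the same SD on every array. That trial therefore does not cover the larger spread of replicates 4 and 5. The series text gives 5 mice per group, and p-values measure the spread between these samples, whose number limits precision. Genes named are the 10, the 4 of each list with the smallest p for the mean Dex effect and any called, and the 5 most correlated with Pnpla2, Plin4 and Angptl4; G0s2, Hilpda and the marker genes were named for their roles. The 10 genes, the lists and the rule were chosen with earlier results of these data known. Alternatives covered the array set, pairing, normalization, filtering, probe set choice, weights and single arrays.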

Additional observations from a re-analysis of the deposited data

Results flagged for a closer look

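Within groups of 5 arrays, 2 of the 40 sets of values of the 10 genes held an array far from the other 4, by a rule that chance meets in about 1 of 20 groups. Pnpla2 stood at 6.06 in control saline replicate 5, while the other 4 arrays of the group were at 5.77 to 5.84. The value is the highest of the group and still below all 5 control Dex arrays. Cpt1a stood at 5.40 in Cx30GRko saline replicate 4, while the other 4 were at 6.04 to 6.22. Without this array the mean Dex effect of Cpt1a was 0.17, against 0.26 with it, and it was not called either way.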

How the results depend on the processing

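Genes called over all 22180, mostly not among the 10, depended strongly on the setting. In control mice 3 were called, 0 with a replicate block, within replicates 4 and 5, with only the groups compared or under an adjusted p of 0.01, 38 within replicates 1 to 3, 59 with array weights, 5 without Cx30GRko Dex replicates 4 and 5, and 0 to 4 without single arrays. In Cx30GRko mice 2 were called, 4 with no block for the array set or with dim probe sets filtered out, 7 within replicates 1 to 3, 17 with array weights, 0 with a replicate block, within replicates 4 and 5, without Cx30GRko Dex replicates 4 and 5, with only the groups compared or under 0.01, and 0 to 4 without single arrays. For the mean effect 24 were called, 15 with a replicate block, 101 within replicates 1 to 3, 0 within replicates 4 and 5, 132 with array weights, 11 under 0.01, and 14 to 29 without single arrays. The interaction and the saline comparison of genotypes gave 0 to 1 without single arrays. Deviations of same-numbered samples had a median correlation of -0.087 (0 of 30 over 0.1). For differently numbered samples of the same set it was -0.107 (0 of 48 over 0.1). Centring within sets pulls both below 0, so the cutoff of 0.1 alone cannot decide on pairing. The numbers were not read as pairs, and with the replicate block Pnpla2 kept its mean effect call (adjusted p = 0.00976) and lost that in control mice (0.173). The call in control mice was also lost with cyclic loess (0.059), a variance trend (0.0972) or only the groups compared (0.095). With array weights Pnpla2 (0.77, 0.013) and Plin4 (1.14, 0.0133) were called in Cx30GRko mice, Plin4 in control mice (1.31, 0.00125) and Lipe (0.34, 0.038), Pnpla7 (0.56, 0.0273), Pdk4 (0.54, 0.0198) and Fkbp5 (1.03, 0.000191) for the mean effect, and within replicates 1 to 3 Plin4 in control mice (1.47, 0.0125). Plin4 was also called for the mean effect with array weights (1.23, 1.94e-05), after quantile normalization (0.0385) or with a filter on dim probe sets (0.0366). Sign changes of uncalled values, counted where the reported value exceeded its SE, were Angptl4 (-0.25), Ces3a (0.04), Pdk4 (-0.012) and Fkbp5 (-0.051) for the mean effect in replicates 4 and 5, Cpt1a (-0.048), Abhd6 (-0.037), Gpam (-0.064) and Nr3c1 (-0.20) for it in replicates 1 to 3, and Plin3 for the interaction (-0.15) and under Dex (-0.13) in replicates 1 to 3. Without Cx30GRko Dex replicates 4 and 5 they were Plin4 for the interaction (0.074), Cpt1a between genotypes under Dex (-0.043), and Acbd3 (-0.0001), Nrip1 (-0.014) and Nr3c1 (-0.070) for the mean effect. Nr3c1 was at -0.12 with array weights. The cause of these changes was not tested.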
